A study of Rattus norvegicus with 4 samples.

Results

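Inflammatory cytokines, chemokines and prostaglandin synthases were described by 6 genes chosen by rat Ensembl identifier: the cyclooxygenases Ptgs2 (ENSRNOG00000002525) and Ptgs1 (ENSRNOG00000007415), the chemokines Ccl2 (ENSRNOG00000007159) and Cxcl1 (ENSRNOG00000002802), and the cytokines Il1b (ENSRNOG00000004649) and Il6 (ENSRNOG00000010278). All 6 of the 6 identifiers had a spot on the array, among 20174 gene probes. The pairing of these identifiers with gene names came with the rule that chose the genes, since no table used here pairs Ensembl identifiers with symbols. RNA came from Rat-1·RasValA1 cells, a stable rat embryonic fibroblast line in which an IPTG-inducible promoter drives HrasG12V, an oncogenic, permanently active Hras. All 4 cultures carried this construct and were kept for 24 h in serum-free medium. They received 5 mM IPTG with 3 µM ZnCl2, 5 mM IPTG alone, 3 µM ZnCl2 alone, or no addition. Each condition was measured on 1 array of 1 culture, so no difference between 2 conditions has a replicate check. No culture lacked the construct, and Hras itself was not analysed here, so IPTG and induced HrasG12V cannot be told apart.

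Cyclooxygenases turn arachidonic acid into the precursor of prostaglandins and thromboxanes. Ptgs1 is the form present in many resting tissues, and Ptgs2 is the form that growth factors, oncogenes and inflammatory signals induce. Ccl2 draws monocytes and Cxcl1 draws neutrophils, Il1b is made as a precursor that must be cut to be secreted, and Il6 signals through the shared receptor subunit gp130. Stimulated fibroblasts can make most of these, and activated Ras is known to raise several of them in other cell systems, in part through NF-kappaB and C/EBP factors.

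The 250 bases before the RefSeq transcription start (build GRCr8) are shown for the cyclooxygenase pair and for 1 chemokine and 1 cytokine. Ptgs2 and Ptgs1 were chosen because they had the largest average IPTG differences among the genes with a listed promoter. Cxcl1 and Il6 were chosen because their averages were near 0, at -0.07 and 0.09. For Cxcl1 this average joins opposite differences, -0.45 with zinc and 0.31 without, and Il6 was at the edge of detection. Each window reads 5′ to 3′ on the gene's strand. Capitals mark matches, on either strand, to 1 of 6 motifs: NF-kappaB (GGGA and CC with any 4 bases between them), AP-1 (TGANTCA), a cyclic AMP response element half-site (TGACG), C/EBP (TTNNGNAA), a TATA box (TATAAA) and an E-box (CACGTG). The windows are chr13:64713813-64714062 on the plus strand for Ptgs2, chr3:39981169-39981418 on the plus strand for Ptgs1, chr14:17479322-17479571 on the minus strand for Cxcl1 and chr4:5894576-5894825 on the minus strand for Il6.
Ptgs2: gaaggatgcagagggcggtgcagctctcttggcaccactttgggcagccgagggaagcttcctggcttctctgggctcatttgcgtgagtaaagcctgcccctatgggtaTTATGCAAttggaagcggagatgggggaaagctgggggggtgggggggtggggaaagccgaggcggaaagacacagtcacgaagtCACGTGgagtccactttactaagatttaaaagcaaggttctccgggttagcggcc
Ptgs1: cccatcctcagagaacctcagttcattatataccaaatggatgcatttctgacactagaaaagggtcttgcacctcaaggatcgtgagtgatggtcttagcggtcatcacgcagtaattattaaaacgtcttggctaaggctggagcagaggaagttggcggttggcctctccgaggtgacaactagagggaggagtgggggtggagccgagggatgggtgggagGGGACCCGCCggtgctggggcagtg
Cxcl1: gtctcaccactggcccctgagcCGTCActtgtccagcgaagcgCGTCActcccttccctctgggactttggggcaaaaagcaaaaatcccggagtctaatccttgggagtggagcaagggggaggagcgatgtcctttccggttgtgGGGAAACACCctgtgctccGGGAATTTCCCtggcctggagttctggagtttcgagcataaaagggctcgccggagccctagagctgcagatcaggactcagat
Il6: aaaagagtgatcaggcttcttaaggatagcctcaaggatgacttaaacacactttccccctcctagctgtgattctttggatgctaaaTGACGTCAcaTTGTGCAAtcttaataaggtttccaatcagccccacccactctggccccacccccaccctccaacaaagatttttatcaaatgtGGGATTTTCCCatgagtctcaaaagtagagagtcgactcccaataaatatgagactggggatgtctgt
The Ptgs2 window held a C/EBP match 140 to 133 bases before the start and an E-box 55 to 50 bases before it. The Ptgs1 window held a single match, to the NF-kappaB motif, 25 to 16 bases before the start. In Cxcl1 an NF-kappaB match lay 103 to 94 bases before the start, and a pair of overlapping ones, 1 on each strand, lay 84 to 74 bases before it. In Il6 a like pair lay 68 to 58 bases before the start, and a C/EBP match and 2 overlapping half-sites lay further up. Of 5 members with a listed window, NF-kappaB was matched in 3 (Il6, Cxcl1 and Ptgs1), C/EBP in 3 (Il6, Il1b and Ptgs2), and AP-1 in 0. Over 33469 rat windows of this length, 16.4% held the NF-kappaB motif, 37.2% the C/EBP motif, 6.34% the AP-1 motif, 18.2% the half-site, 12.9% the TATA box and 5.59% the E-box. A match says only that these letters are present.

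Levels are given as log2 of the scanner intensity above the mean of the blank spots of that array, with 50 added and the arrays quantile normalized. The added 50 shrinks the differences of dim spots, so ratios of the authors' deposited normalized intensity, which has no such offset, are given beside them. The authors' scaling itself moved the median probe: its log2 difference was 0.29 for IPTG with zinc, 0.34 for IPTG without zinc, -0.24 for zinc with IPTG and -0.20 for zinc without IPTG, against -0.01 to 0.01 on the scale used here. A spot was called detected where its intensity exceeded the blank mean by 2 SD. As a guide to error, repeat spots of the positive controls within an array give a spread of 0.22 for a log2 difference between 2 arrays. That spread comes from bright spots and leaves out differences between cultures. Of the gene probes, 66.7% to 72.4% were detected per array. The blank mean of the array for IPTG plus zinc was the highest, at 69.8 against 66.0 to 66.5 on the others, and so was its share of spots without a probe above the limit, at 24.0% against 16.6% to 17.9%. That array enters every comparison of IPTG with zinc and of zinc with IPTG, and its part in the values below was not tested.

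**Figure D1:**
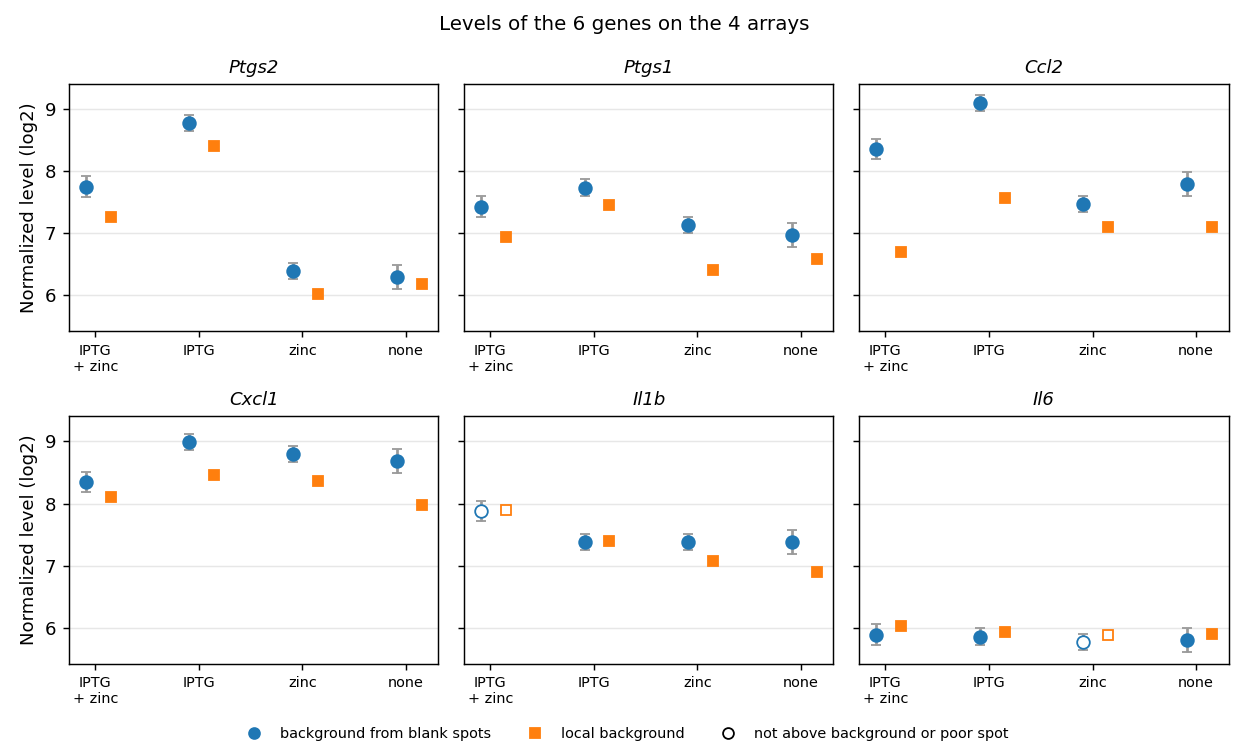
Normalized log2 level of each gene (vertical axis) on the 4 arrays (horizontal axis), with the background taken from the blank spots (circles) or from the surroundings of each spot (squares); bars are the SD of repeat positive control spots on that array. Ptgs2 shows the widest range, and Ptgs2, Ptgs1, Ccl2 and Cxcl1 are highest with IPTG alone. Open symbols mark the Il6 spot not above background and the Il1b spot marked poor.

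Ptgs2 was higher with IPTG in both pairs of arrays, and its level with IPTG was lower when zinc was present. Its log2 level was 7.75 with IPTG and zinc, 8.77 with IPTG alone, 6.38 with zinc alone and 6.28 without additions. Both IPTG arrays lay above both arrays without IPTG, and the last 2 differed by 0.10, less than the spread of repeat spots. The IPTG difference was 1.37 with zinc (2.58-fold) and 2.49 without zinc (5.62-fold). Among the 13972 probes tested for IPTG, 0.909% had a larger difference with zinc and 0.222% without zinc. In the authors' deposited table its normalized intensity was 80.9 with IPTG and zinc, 226 with IPTG alone, 12.8 with zinc alone and 11.5 without additions. In that table the ratio of IPTG to no IPTG was thus 6.31 with zinc and 19.7 without, both wider than on the scale with the offset. With the difference of the median probe subtracted, these ratios were 5.15 with zinc and 15.5 without. An offset of 16 gave 3.67-fold with zinc and 9.20-fold without it.

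The zinc difference of Ptgs2 was past the spread of repeat spots with IPTG and within it without IPTG. In IPTG cells its level was 2.04-fold lower with zinc (log2 difference -1.03), and 0.863% of 13667 probes were lower still. Without IPTG the zinc difference was 0.10. The with-zinc IPTG difference minus the without-zinc one was -1.12 on the log2 scale, and 0.926% of 14254 probes lay lower. No test of that value is possible with 4 arrays. Taking the local background of each spot instead gave IPTG differences of 1.24 with zinc and 2.22 without, in the same direction. The zinc difference was then -1.14 with IPTG, also in the same direction. Without IPTG it became -0.16, of opposite sign but within the spread of repeat spots. The spot touching it that was brightest read 6509 with IPTG and zinc, 5662 with IPTG alone, 5832 with zinc alone and 6907 without additions. The spot on the far side of that neighbour read 66.2 to 70.3. The neighbour's part in the Ptgs2 signal was not tested.

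Ptgs1, the other cyclooxygenase, showed the same order of conditions at smaller size. Its log2 level was 7.43 with IPTG and zinc, 7.73 with IPTG alone, 7.12 with zinc alone and 6.96 without additions. The 2 arrays without IPTG were the lowest, and they differed by 0.16, within the spread of repeat spots. The IPTG difference was 0.30 with zinc (1.24-fold) and 0.77 without (1.70-fold), and 14.8% and 6.05% of probes had a larger one. The zinc difference with IPTG was -0.31 (1.24-fold lower), just past that spread, and 12.8% of probes were lower. Its with-zinc IPTG difference minus the without-zinc one, the difference of effects, was -0.46, and 8.91% of probes lay lower. In the authors' deposited table Ptgs1 had a normalized intensity of 58.5 with IPTG and zinc, 89.5 with IPTG alone, 36.2 with zinc alone and 33.5 without additions. On the local background the IPTG differences were 0.54 with zinc and 0.87 without.

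Ccl2, the monocyte chemoattractant, was higher with IPTG in both pairs when the blank spots gave the background, but with the local background it was higher without zinc and lower with zinc. Its log2 level was 8.35 with IPTG and zinc, 9.09 with IPTG alone, 7.46 with zinc alone and 7.79 without additions. Both IPTG arrays were above the others, and zinc gave the lower level within each IPTG state. The IPTG difference was 0.89 with zinc (1.86-fold) and 1.30 without (2.46-fold), with 2.78% and 1.58% of probes higher. The zinc difference was -0.74 with IPTG (1.67-fold lower) and -0.34 without IPTG (1.26-fold lower). In these zinc comparisons 2.35% of probes were lower with IPTG and 2.25% without it. Its difference of effects was -0.41, and 10.8% of probes lay lower. In the authors' deposited table the normalized intensity of Ccl2 was 135 with IPTG and zinc, 294 with IPTG alone, 51.1 with zinc alone and 79.3 without additions.

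The local background around the Ccl2 spot was itself high on both IPTG arrays. Above the blank spots it amounted to 84.8% of the Ccl2 signal with IPTG and zinc and 76.3% with IPTG alone, against 31.9% with zinc alone and 48.0% without additions. Among gene probes with an intensity of 200 to 600, the median share was 36.8%, 40.6%, 31.6% and 30.3% on these arrays in the same order, and the Ccl2 share exceeded that of 95.3% and 92.7% of such probes on the 2 IPTG arrays. With the local background subtracted, the IPTG difference of Ccl2 was -0.41 with zinc and 0.47 without, and the zinc difference was -0.88 with IPTG and 0.00 without. The direction of the IPTG difference with zinc therefore turned with the background. Local background tracked signal in general, with r between 0.94 and 0.95 per array on the log2 scale (20174 probes, which share arrays and surface). The brightest spot touching Ccl2 was dimmer with IPTG than without, reading 195 with IPTG and zinc and 279 with IPTG alone, against 296 with zinc alone and 329 without additions. The spot on the far side of that neighbour was brighter with IPTG, at 139.0 with zinc and 125.3 without, against 98.9 with zinc alone and 109.4 without additions. The part of the surroundings in the Ccl2 signal was not tested.

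**Figure D2:**
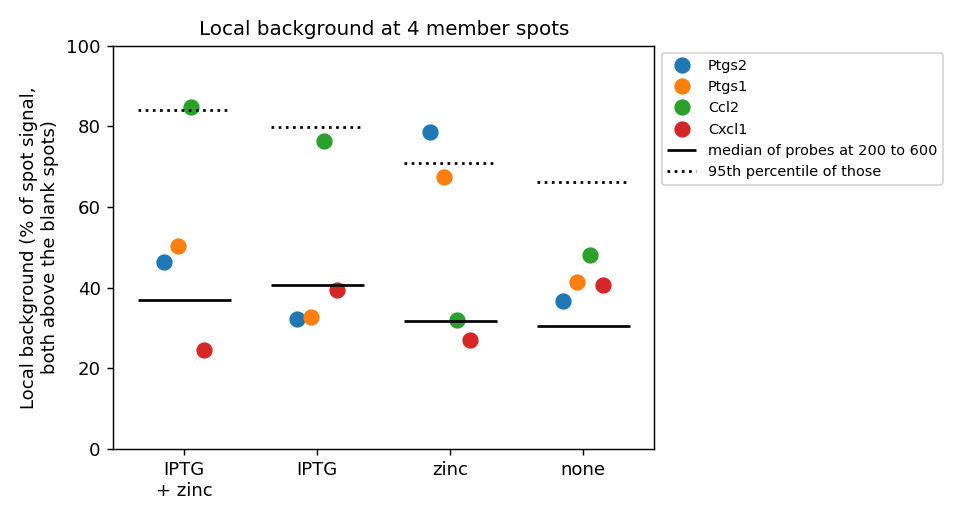
Local background above the blank spots as a percentage of the spot signal above the blank spots (vertical axis) for Ptgs2, Ptgs1, Ccl2 and Cxcl1 on the 4 arrays (horizontal axis). Lines give the median (solid) and the 95th percentile (dotted) of gene probes with an intensity of 200 to 600. Some plotted spots are dimmer than that range, so the lines do not describe probes of their intensity. Ccl2 reaches 84.8% with IPTG and zinc and 76.3% with IPTG alone. Ptgs2 reaches 78.6% with zinc alone, where its intensity was only 95.8.

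Cxcl1, the neutrophil chemokine, had its lowest level with IPTG and zinc together when the blank spots gave the background. Its log2 level was 8.35 with IPTG and zinc, 8.99 with IPTG alone, 8.79 with zinc alone and 8.69 without additions. The 2 arrays without IPTG differed by 0.11, and IPTG alone and zinc alone by 0.20, each less than the spread of repeat spots. The IPTG difference was -0.45 with zinc (1.36-fold lower) and 0.31 without (1.24-fold higher), so the pairs went in opposite directions. The zinc difference was -0.64 with IPTG (1.56-fold lower), and 3.51% of probes were lower. Without IPTG it was 0.11. The with-zinc IPTG difference minus the without-zinc one was -0.75, and 3.10% of probes lay lower. In the authors' deposited table the normalized intensity of Cxcl1 was 135 with IPTG and zinc, 267 with IPTG alone, 155 with zinc alone and 167 without additions. On the local background the log2 level was lowest without additions, at 7.97, and next lowest with IPTG and zinc, at 8.10. The IPTG differences were then -0.27 with zinc and 0.49 without, with the same signs. The zinc differences on that background were -0.36 with IPTG and 0.39 without, so both were past the spread of repeat spots.

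Il1b could be compared on only 3 arrays. Its spot on the array with IPTG and zinc was marked poor at 2 of 3 scanner gains, and the authors' deposited table leaves it empty, so Il1b was left out of every fit. Its log2 level was 7.37 with IPTG alone, 7.37 with zinc alone and 7.38 without additions. These 3 levels lay within 0.0048 of each other, closer than the spread of repeat spots. The authors' deposited table gave a normalized intensity of 62.6 with IPTG alone, 47.1 with zinc alone and 53.6 without additions. With the local background the IPTG difference without zinc became 0.49; the surroundings of the spot read 71.1 with IPTG alone against 105.5 without additions. The Il1b spot touches a very bright one, which read 29327 with IPTG alone, 29437 with zinc alone and 30287 without additions. The spot on the far side of that bright one read 65.5 to 65.7 on these arrays, at the level of the blanks, while the part of the bright spot in the Il1b signal was not tested.

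Il6 was at the edge of detection. Its intensity was 76.1 with IPTG and zinc, 71.0 with IPTG alone, 67.0 with zinc alone and 67.9 without additions, against detection limits of 71.8, 67.6, 68.3 and 67.7 on those arrays. Il6 was thus above the limit on both IPTG arrays, not above it with zinc alone, and barely above it without additions. At least as bright as Il6 were 0.521%, 0.372%, 31.8% and 5.51% of the 1344 blank spots on the same arrays, and 1.14%, 0.436%, 52.3% and 14.2% of the 5273 spots without a probe. In the authors' deposited table its normalized intensity was 2.88 with IPTG and zinc, 2.81 with IPTG alone and 0.917 without additions. Against the dimmest probe listed in the authors' deposited table for zinc alone, the ratio of IPTG with zinc was at least 3.70-fold. The authors' scaling moved the median probe by a log2 difference of 0.29 in this comparison, and that ratio includes the shift. With the offset of 50 the ratio was at least 1.06-fold, and the IPTG difference without zinc was 0.06. A spot touching Il6 read 1418 with IPTG and zinc and 4033 with IPTG alone, against 114 with zinc alone and 112 without additions. That neighbour was brighter on both IPTG arrays than on the others, as Il6 was. Between the 2 IPTG arrays the neighbour was brighter without zinc, while Il6 was brighter with zinc. The neighbour's part in the Il6 signal was not tested. The spot on its far side was dimmer with IPTG, at 90.9 and 80.7 with and without zinc, against 119.5 and 123 without IPTG.

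**Figure D3:**
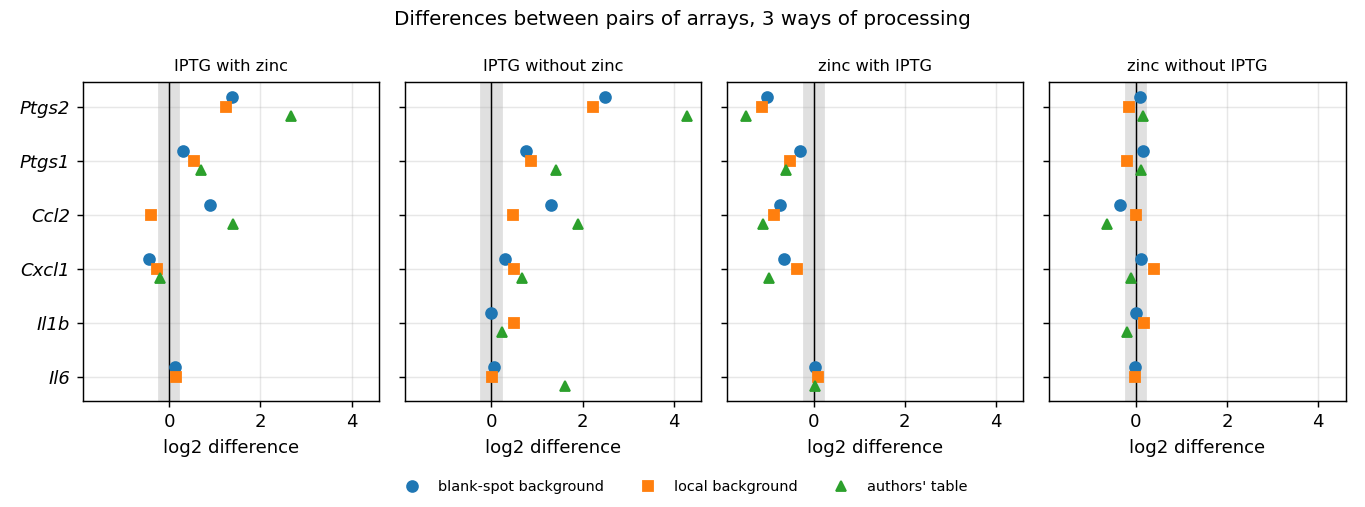
Log2 difference (horizontal axis) of each gene (vertical axis) in the 4 comparisons, with the background from the blank spots (circles), the local background (squares) and the authors' table (triangles). The grey band is the 0.22 spread of repeat spots. All Ptgs2 symbols lie to the right of it in both IPTG comparisons, and the Ccl2 square for IPTG with zinc lies left of 0.

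For the 5 genes that entered the fits, IPTG differences were counted beside all probes. At least 2-fold higher with IPTG were 1 of 5 with zinc (Ptgs2), against 2.12% of 13972 probes, and 2 of 5 without zinc (Ptgs2 and Ccl2), against 3.43%. Ptgs2 alone passed that limit in both pairs, against 1.33% of probes, and 0 of 5 passed it downward in both, against another 1.33%. The median log2 IPTG difference of the 5 was 0.30 with zinc and 0.77 without, while the median probe was at 0.00 and 0.01. With the local background, 1 of 5 (Ptgs2) was at least 2-fold higher in each pair, against 3.30% of probes with zinc and 4.32% without. Ccl2 was then 1.39-fold higher without zinc, and the median of the 5 was 0.14 with zinc and 0.49 without. In the authors' deposited table, 2 of 4 genes with values were at least 2-fold higher with zinc (Ptgs2 and Ccl2), against 13.4% of listed probes. Without zinc 4 of 5 were (Ptgs2, Ccl2, Ptgs1 and Il6), against 18.5%. Il6 was barely above the detection limit without additions, and its difference without zinc was 0.06 with the offset of 50. It passed the detection filter for IPTG only through the arrays with IPTG.

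In the fit across all probes, limma with additive IPTG and zinc terms over the 4 arrays called 0 of 13972 probes for IPTG (0%) at a Benjamini-Hochberg adjusted p of 0.05, and 2949 had an unadjusted p under 0.05. With 1 residual degree of freedom, this test takes the dependence of 1 factor on the other as error. The average IPTG difference of Ptgs2 was 1.93 ± 0.37 (SE, limma adjusted p = 0.177), higher in 2 of 2 pairs, and its adjusted p ranged from 0.0106 to 0.251 over 9 alternatives. For Ccl2 it was 1.10 ± 0.14 (SE, limma adjusted p = 0.138), higher in 2 of 2 pairs, with a range from 0.0246 to 0.975, the last with the local background. The limma adjusted p was 0.262 for Ptgs1, 0.542 for Il6 and 0.935 for Cxcl1. A variance prior that follows intensity, fitted robustly, called 636 probes higher (4.55%) and 776 lower (5.55%), Ptgs2 and Ccl2 among the higher (limma adjusted p = 0.0106 and 0.0246). For zinc, limma called 0 of 13667 probes (0%) with either prior, and 201 and 357 had an unadjusted p under 0.05. Over both IPTG states, the average zinc difference of Ccl2 was -0.54 ± 0.14 and that of Ptgs2 -0.47 ± 0.37 (SE, limma adjusted p = 0.9995 for each).

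With IPTG present, 4 of the 5 genes were lower with zinc than without it, as were 52.3% of 13667 probes, and Il6 differed by 0.03. Also lower in the authors' deposited table were 4 of 5, against 68.2% of probes. At least 1.5-fold lower were 3 of 5 (Ptgs2, Ccl2 and Cxcl1), against 4.4% of 13667 probes, and 1 of 5 (Ptgs2) was at least 2-fold lower, against 0.937%. The median of the 5 was -0.64, and that of all probes -0.01. With the local background, 2 of 5 were at least 1.5-fold lower (Ptgs2 and Ccl2), against 5.73% of probes. The authors' deposited table had 4 of 5 past that limit, against 25.2% of probes. Without IPTG, 0 of 5 were 1.5-fold lower with zinc, against 0.22% of probes, and 0 of 5 were 1.5-fold higher, against 0.498%. The median of the 5 was then 0.10. For zinc without IPTG in the authors' deposited table, 1 of 4 genes with values (Ccl2, 1.55-fold) was at least 1.5-fold lower, against 9.0% of probes.

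The 4 genes detected on every array without a poor spot, Ptgs2, Ptgs1, Ccl2 and Cxcl1, had their highest level with IPTG alone, as did 33.0% of the 12781 probes detected on all 4 arrays. All 4 did so with the local background and in the authors' deposited table too. The share of all probes that did so was not counted on those scales. For Cxcl1, IPTG alone lay only 0.20 above zinc alone, less than the spread of repeat spots. With the local background its levels were 8.46 with IPTG alone and 8.37 with zinc alone, also within that spread. In the authors' table the median probe itself had a log2 difference of 0.34 for IPTG without zinc and -0.24 for zinc with IPTG. The IPTG difference without zinc and the zinc difference with IPTG share the array with IPTG alone, so a culture or array that stood apart there would move both. Among the 479 probes past 2-fold upward for IPTG without zinc, 77.7% were lower with IPTG and zinc than with IPTG alone. Of the 186 probes that passed the 2-fold limit upward in both IPTG comparisons, 46.2% had the smaller difference with zinc, as Ptgs2 did.

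**Figure D4:**
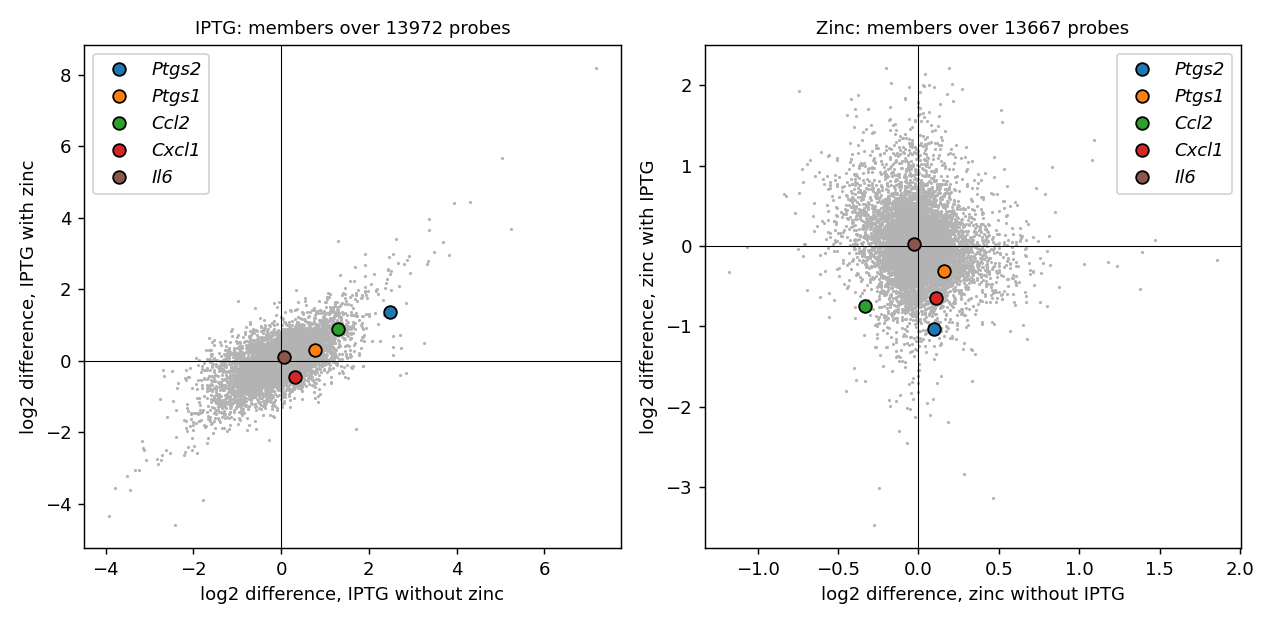
Left, log2 IPTG difference without zinc (horizontal) and with zinc (vertical) for 13972 probes (grey) and the 5 fitted genes (coloured). Right, log2 zinc difference without IPTG (horizontal) and with IPTG (vertical) for 13667 probes. Ptgs2 lies at 2.49 and 1.37 on the left, and Ptgs2, Ccl2 and Cxcl1 lie at -0.64 or lower on the vertical axis on the right.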

How the data were processed

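Total RNA of 4 cultures was amplified and labelled with Cy5, per the labels' protocols. The deposited scanner files give median spot and local background intensity, unscaled, read at 3 gains related by least squares, per the file headers; the sources used here do not give the scanner software. The authors' deposited table holds an intensity scaled to a median of 25 per array, with dim and poor spots empty; these steps were found from the values.

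The background was set to the mean of each array's blank spots (5 percent left out at each end), because the local background rises with the signal, and corrected with limma's normexp (offset 50), then log2 and quantile normalization. The 8 poor gene probes were left out of the fits (20166 left). Probes detected on both arrays of 1 level entered limma (R 4.3.3, limma 3.58.1, lmFit, eBayes, two-sided). The fit was run on simulated data with additive IPTG differences only. That run does not cover a dependence of the IPTG difference on zinc. Alternatives were the local background, plain subtraction, no correction, offset 16, median scaling, the authors' table, other filters and priors, fold limits and, added after the data were seen, subtraction of the median of nearby probes (within 5 columns and rows).

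The members, gene lists and settings were chosen with earlier results of these data known. All 6 members are named. The lists of chemokines, receptors, interleukin pathways, NF-kappaB, prostanoid genes and cell type markers, Hras and the genes most like each member were not analysed here, since 0 of 20174 identifiers matched a symbol. Promoters come from RefSeq (GRCr8), matched by symbol for 5 of 6 genes. With 1 culture per condition, the p-values do not measure the spread between cultures. Their error holds the dependence of 1 factor on the other as well as noise, moderated over all probes tested. The number of arrays limits precision.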

Additional observations from a re-analysis of the deposited data

Results flagged for a closer look

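The values here rest on 1 array per condition, and none of these differences between pairs was tested. Cxcl1 moved in opposite directions with IPTG, with a log2 difference of -0.45 with zinc and 0.31 without, and with zinc, at -0.64 with IPTG and 0.11 without. The 2 IPTG values and the zinc value with IPTG are past the 0.22 spread of repeat spots, and the zinc value without IPTG is within it. That last value was 0.03 with median scaling, 0.39 with the local background and -0.11 in the authors' table, where zinc with IPTG was -0.98. In that table the zinc differences thus had the same sign. With the difference of the median probe subtracted there, they were 0.10 without IPTG and -0.74 with IPTG, so the sign depended on the scaling. The Cxcl1 IPTG difference with zinc was -0.28 with median scaling and -0.27 with the local background. In the authors' table it was -0.20, within the spread, and -0.49 with the difference of the median probe subtracted. For Ptgs2 the zinc difference was -1.03 with IPTG and 0.10 without, and for Ptgs1 it was -0.31 with IPTG and 0.16 without. In both genes the value without IPTG is within that spread. With the local background both zinc differences were negative, at -1.14 with IPTG and -0.16 without for Ptgs2. For Ptgs1 they were -0.52 with IPTG and -0.18 without. The zinc difference of Il6 was 0.0305 with IPTG and -0.0278 without, both within the spread and next to the detection limit.

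The Il1b spot marked poor on the array with IPTG and zinc, which entered no comparison, read 269, above the 71.8 limit of that array. The scanner marked it at 2 of 3 gains.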

How the results depend on the processing

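A recomputed difference was counted as moved where it shifted by at least the 0.22 spread of repeat spots. For a difference of effects that limit was the spread times the square root of 2. Over 186 recomputed differences of the 6 genes, 157 stayed within these limits, 29 moved further, and 10 changed sign. Of the 10, 2 started from a value past the 0.22 spread. Both were Ccl2 with the local background (IPTG with zinc -0.41, zinc without IPTG 0.00). The 29 came from the local background (11), the authors' table (16) and offset 16 (2). Subtraction of the median of nearby probes, chosen after seeing the data, moved 0 of 27 past these limits. It took the Ccl2 difference of effects from -0.41 to -0.63, within the wider limit only. For IPTG, 1 gene passed the 2-fold limit upward in both pairs. The count became 2 (Ptgs2 and Ccl2) with offset 16, with the authors' table and with a fold limit of 1.5, and 0 with a fold limit of 3. The limma count for IPTG was 0, but 38 with offset 16, 834 with the authors' table and 1412 with the trend and robust prior; for zinc it was 0 under every alternative run. In the authors' table, 18.5% of probes passed 2-fold upward and 7.70% downward for IPTG without zinc, against 3.43% and 3.85% with the blank-spot background. Less offset widens differences of dim spots, and the authors' scaling moved the median probe by 0.34 for IPTG without zinc. The part of these and of other causes in the shifts was not tested. The additive fit compared IPTG within each zinc state, and no replicate block could be added with 1 array per condition. Low signal over background limits Il6, and the poor spot limits Il1b.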
